A study of Mus musculus with 16 samples.

Results

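The genes described here make, store, take back and break down the catecholamines dopamine, noradrenaline and adrenaline. They are 9 of the 24411 genes in the tables and were taken by symbol: the synthesis enzymes Th, Ddc, Dbh and Pnmt, the cofactor enzyme Gch1, the vesicle transporters Slc18a1 and Slc18a2, the noradrenaline transporter Slc6a2, and the breakdown enzyme Maoa. All 9 passed the filter on low counts, Pnmt with 0 to 56 counts per library. They were measured by RNA-seq in 16 libraries of 5 groups.

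The study used Th-MYCN mice, in which a tyrosine hydroxylase promoter drives a human MYCN transgene in cells of the sympathetic lineage, and asked how losing an allele of Runx1t1, a transcriptional co-repressor gene, affects the path to neuroblastoma. Celiac ganglia, a sympathetic ganglion pair of the abdomen, came from mice of 2 weeks of age. Transgene-free ganglia carried no MYCN transgene and were wild-type for Runx1t1 (n = 4) or labelled heterozygous for it (n = 3). MYCN ganglia were homozygous for the transgene and were wild-type for Runx1t1 (n = 3) or labelled heterozygous (n = 2). The remaining libraries were tumors of homozygous transgenic mice, wild-type for Runx1t1 (n = 4), for which the labels give no age. The Th-MYCN line was kept on a 129/SvJ background, and the heterozygous allele was an insertional knockout brought in by a cross with mice of another stock. The labels name the cell type as neuroblastoma for every library, ganglia included. They do not say whether libraries came from separate animals, so p-values measure the spread between these libraries only. Tumors and ganglia also differ in tissue and possibly in age, which cannot be told apart from the effect of tumor formation.

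The depth was 10692299 to 38618757 counts per library, with all 4 tumors at 27096032 or more. Runx1t1 RNA, the targeted gene, lay at 2.78 to 4.41 TPM (a level scaled for transcript length and for the sum over all genes) in transgene-free wild-type ganglia and at 4.36 to 6.28 TPM in those labelled heterozygous. In MYCN ganglia it was 70.34, 7.9 and 37.44 TPM in the wild-type group and 8.83 and 16.86 TPM in the group labelled heterozygous, so the ranges of the MYCN groups overlapped. The human transgene has no row in these tables of mouse genes, and whether its reads reach the row of Th was not tested. Of 10 pan-neuronal markers, the summed level was 7721 to 21280 TPM in transgene-free ganglia, 12750 to 18330 TPM in MYCN ganglia and 4411 to 12680 TPM in tumors. Replicate 2 of the transgene-free wild-type ganglia had 473.5 TPM of lymphocyte markers, against 0.56 to 5.79 TPM in the other 15 libraries, and replicate 3 of the tumors had 6221 TPM of liver markers, against 1.43 to 291.1 TPM elsewhere.

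Catecholamine synthesis begins when tyrosine hydroxylase (Th), which needs tetrahydrobiopterin made by way of GTP cyclohydrolase (Gch1), turns tyrosine into L-DOPA. Aromatic L-amino acid decarboxylase (Ddc) turns L-DOPA into dopamine, the vesicular monoamine transporters load dopamine into vesicles, and dopamine beta-hydroxylase (Dbh) turns it into noradrenaline inside them. Sympathetic neurons stop there, while adrenal chromaffin cells go on to adrenaline with Pnmt. Released noradrenaline returns to the neuron through Slc6a2, and monoamine oxidase A (Maoa) breaks down what is not stored again.

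The start sites of 6 of the 9 genes had an entry in the RefSeq promoter table (build GRCm38.p6), and the 120 bases before each start are shown because the levels of these 6 genes, which fell together in tumors by unequal amounts, are compared below. Each runs 5′ to 3′ on the strand of the gene. Capitals mark matches, on either strand, to TGACG, the core of the cAMP response element, whose full palindrome is TGACGTCA and holds that core on both strands.
Th, chr7:142899996-142900115, minus strand: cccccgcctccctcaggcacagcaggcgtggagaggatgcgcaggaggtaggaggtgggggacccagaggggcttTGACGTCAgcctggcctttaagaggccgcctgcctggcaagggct
Gch1, chr14:47189414-47189533, minus strand: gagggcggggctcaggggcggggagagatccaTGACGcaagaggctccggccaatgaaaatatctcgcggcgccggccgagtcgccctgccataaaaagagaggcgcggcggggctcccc
Ddc, chr11:11898145-11898264, minus strand: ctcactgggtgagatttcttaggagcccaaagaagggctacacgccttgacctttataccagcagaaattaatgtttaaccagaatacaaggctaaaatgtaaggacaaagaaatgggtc
Ddc, chr11:11890409-11890528, minus strand: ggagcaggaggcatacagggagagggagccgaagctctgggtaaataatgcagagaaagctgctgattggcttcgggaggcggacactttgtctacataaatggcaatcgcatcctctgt
Dbh, chr2:27165387-27165506, plus strand: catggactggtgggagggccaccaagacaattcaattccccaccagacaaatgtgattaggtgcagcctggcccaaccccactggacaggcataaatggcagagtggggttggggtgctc
Slc18a2, chr19:59260758-59260877, plus strand: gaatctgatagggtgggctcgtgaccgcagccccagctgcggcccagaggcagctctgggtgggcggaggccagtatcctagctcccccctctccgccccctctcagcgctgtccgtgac
Maoa, chrX:16619578-16619697, plus strand: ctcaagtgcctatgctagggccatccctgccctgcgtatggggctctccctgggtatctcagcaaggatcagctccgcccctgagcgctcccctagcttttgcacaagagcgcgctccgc

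Within the 250 bases before the start, Th held TGACGTCA at positions -45 to -38, Gch1 held TGACG at -88 to -84, Maoa held it at -209 to -205, and Dbh held it on the opposite strand at -222 to -218. Of 32851 promoter entries, 1.55% held TGACGTCA and 17.8% held TGACG in that window, on either strand. The palindrome of the E-box, CACGTG, is in 6.02% of entries and was not found in this window of any of these genes. A match is a run of letters and says nothing of binding. Neither of the 2 entries of Ddc held TGACG in its window, nor did that of Slc18a2. Pnmt, Slc18a1 and Slc6a2 have no entry in the table.

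The tumors held less RNA of 8 of the 9 catecholamine genes than transgene-free ganglia, and the loss was uneven. It was 145-fold for the noradrenaline transporter Slc6a2, 19.6-fold for Dbh and 15.1-fold for Maoa, but 2.98-fold for Th and 1.96-fold for Ddc, which catalyse the opening steps. Summed over the 9 genes, the share of all TPM fell from 0.748% ± 0.223 (SD, n = 7) in transgene-free ganglia to 0.0833% ± 0.0157 (SD, n = 4) in tumors, with no overlap (0.33% to 1.0% against 0.061% to 0.0967%). No member was called higher in tumors. Of all 16665 genes tested, 30.9% were called lower and 30.6% higher in the same comparison, so a lower call is common among all genes too. The median log2 fold change was -3.31 over the 9 genes and -0.06 over all genes tested. In bulk libraries fewer cells of a type and less RNA per cell cannot be told apart.

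**Figure D1:**
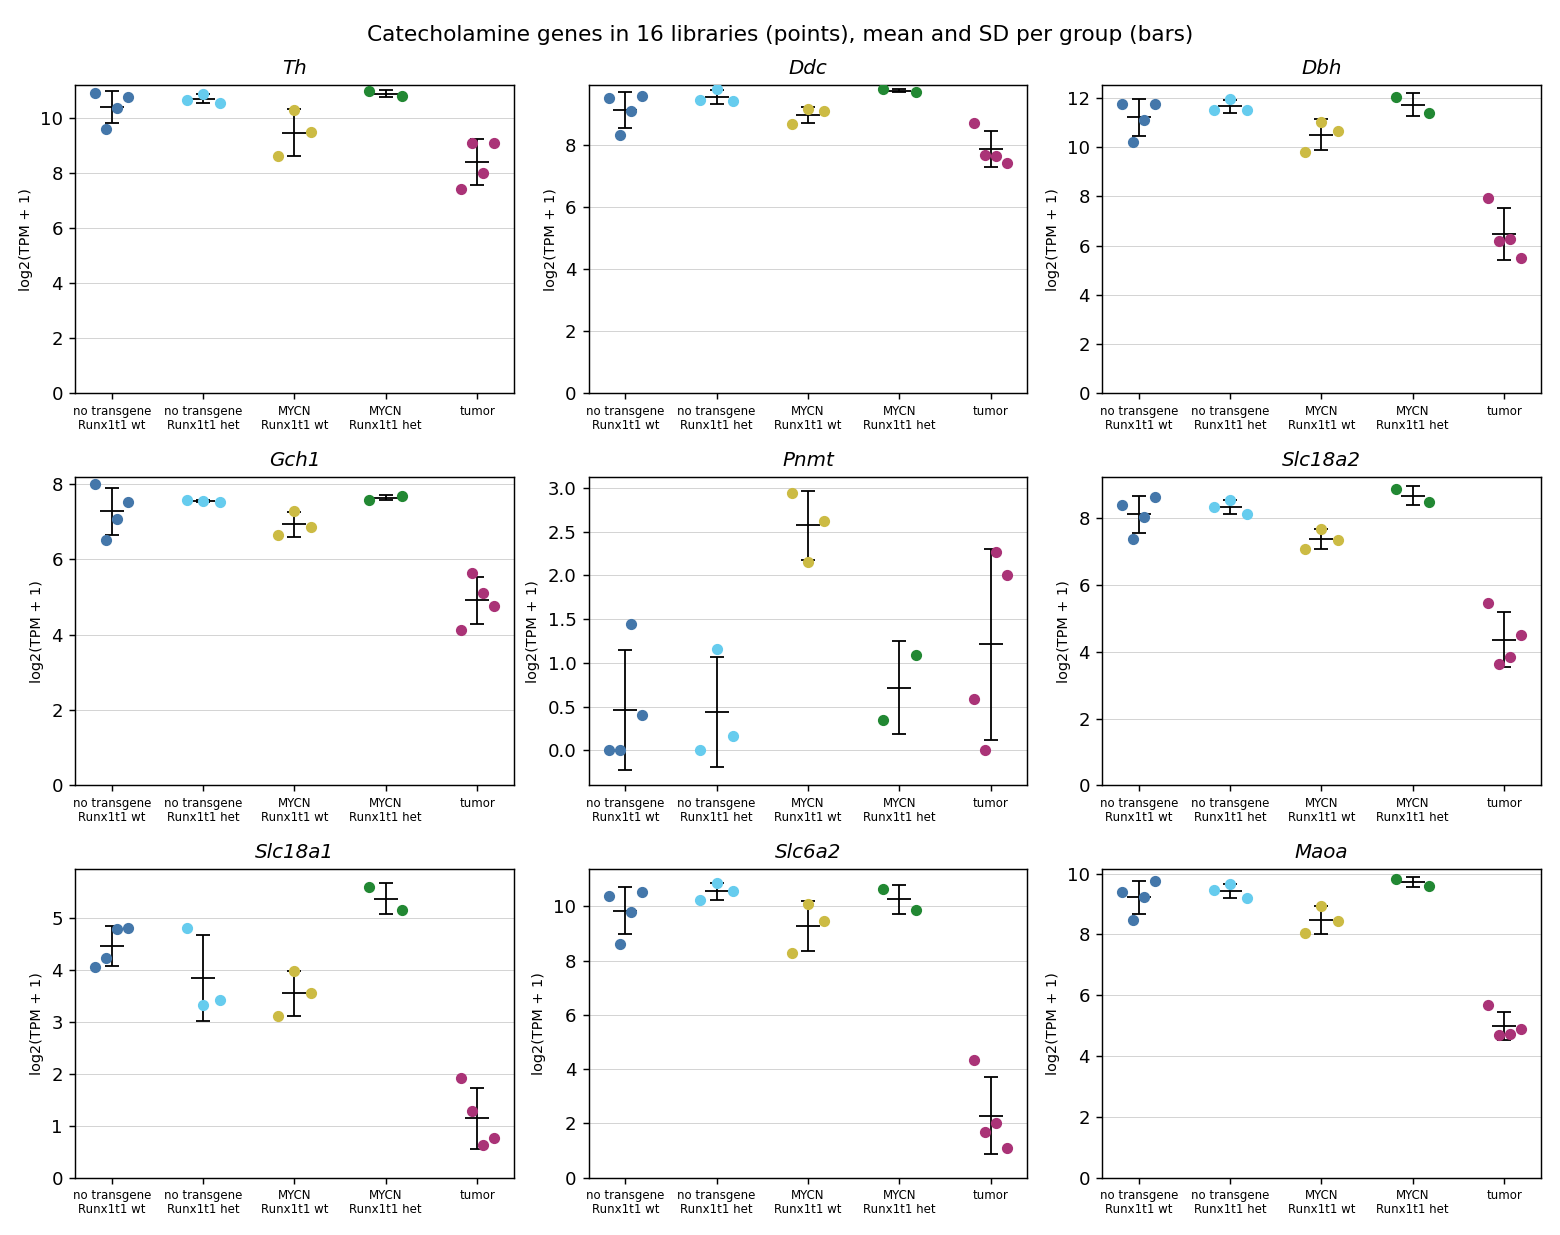
Levels of the 9 catecholamine genes as log2(TPM + 1) in each library (points), by group, with the mean and SD of each group. The 4 tumors lie below all 7 transgene-free ganglia for 7 of the 9 genes, all but Ddc and Pnmt, an order that 30.9% of all genes tested had, and tumor replicate 1 holds 245.49 TPM of Dbh against 44.1 to 75.76 TPM in the other tumors.

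Th encodes the rate-limiting enzyme of the pathway (chr7:142892752-142931128, minus strand, GRCm38). Its level was 1920.24, 785.65, 1323.06 and 1739.28 TPM in the transgene-free wild-type ganglia and 1633.77, 1881.37 and 1504.87 TPM in those labelled heterozygous. In tumors it was 171.7, 548, 256.6 and 545.17 TPM. All tumors were therefore below all 7 transgene-free ganglia, the lowest of which was the library rich in lymphocyte markers. The log2 fold change was -1.57 (SE 0.37, adjusted p = 0.0022 in edgeR). Against MYCN wild-type ganglia, at 391.09, 1260.16 and 729.84 TPM, the tumors overlapped with the lowest ganglion and the difference of -0.64 (SE 0.42) did not pass the test (adjusted p = 0.258). Against MYCN ganglia labelled heterozygous, at 2033.18 and 1782.04 TPM, it was -1.82 (SE 0.46, adjusted p = 0.00558). Both transgenic groups carry the same transgene, and the human MYCN RNA was not measured here.

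Ddc, the decarboxylase that makes dopamine (chr11:11814101-11898144, minus strand), showed the smallest loss of the 8 genes that were called. The 7 transgene-free ganglia ranged from 315.72 to 888.53 TPM with a median of 688.91 TPM, and the tumors stood at 417.97, 203.96, 198.53 and 170.43 TPM. Tumor replicate 1 lay inside the range of the ganglia and the other tumors below it. Its log2 fold change was -0.97 (SE 0.26, adjusted p = 0.00526). Against MYCN wild-type ganglia, at 404.76, 562.81 and 543.24 TPM, it was -0.63 (SE 0.30) and did not pass the test (adjusted p = 0.126), but without tumor replicate 1 it was -1.0 and did (adjusted p = 0.00697). Against the MYCN ganglia labelled heterozygous, at 880.92 and 832.77 TPM, it was -1.29 (SE 0.34, adjusted p = 0.00643).

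Dbh makes noradrenaline from dopamine in the vesicle (chr2:27165233-27183200, plus strand), and it was the most abundant of these genes in ganglia. Its level was 3497.79, 1181.92, 2201.09 and 3500.4 TPM in transgene-free wild-type ganglia and 2937.47, 4001.05 and 2912.46 TPM in those labelled heterozygous. The tumors held 245.49, 71.44, 75.76 and 44.1 TPM, each below every ganglion of any genotype. The log2 fold change to transgene-free ganglia was -4.30 (SE 0.52, adjusted p = 1.10e-05). Without tumor replicate 1 it was -5.08, a 33.7-fold difference in place of 19.6-fold. MYCN ganglia held 901.73, 2114.58 and 1611.6 TPM when wild-type and 4267.95 and 2704 TPM when labelled heterozygous. The tumors were lower than these groups by 10.6-fold (edgeR, adjusted p = 0.000385) and 22.6-fold (adjusted p = 5.32e-05). Without tumor replicate 1 they were lower by 18.3-fold and 38.8-fold. Among all genes ordered by mean TPM, Dbh stood at place 25 in transgene-free ganglia and at place 1230 in tumors.

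Gch1, which makes the precursor of the tetrahydrobiopterin cofactor of Th (chr14:47153895-47189413, minus strand), ranged from 90.62 to 254.09 TPM with a median of 183.63 TPM in the 7 transgene-free ganglia. The tumors stood at 16.64, 48.96, 33.46 and 26.19 TPM, below all ganglia. It fell by 2.04 on the log2 scale (SE 0.30, adjusted p = 4.98e-05), and against MYCN wild-type ganglia (99.13, 156.08 and 116.26 TPM) it was -1.59 (SE 0.33, adjusted p = 0.00259). Gch1 thus fell with Th in direction, 4.12-fold against 2.98-fold relative to transgene-free ganglia, and the difference between these folds was not tested.

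Pnmt, the enzyme of adrenaline synthesis (chr11:98386450-98388181, plus strand), was near the limit of detection in most libraries. It was 0, 0, 1.73 and 0.32 TPM in transgene-free wild-type ganglia, 0, 1.23 and 0.12 TPM in those labelled heterozygous, and 0.5, 0, 3.8 and 3.01 TPM in tumors. MYCN wild-type ganglia had 6.67, 3.46 and 5.14 TPM, from 23, 26 and 56 counts, and lay above all other ganglia, while those labelled heterozygous had 0.27 and 1.13 TPM. The share of all genes with that order of the ganglia was not computed. The log2 fold change of tumors to transgene-free ganglia, 2.18 (SE 1.13), did not pass the test (adjusted p = 0.11). It passed when any of 3 libraries was left out: transgene-free heterozygous-labelled replicate 3 (3.40, adjusted p = 0.0442), transgene-free wild-type replicate 3 (3.09, adjusted p = 0.0356) or tumor replicate 2 (2.58, adjusted p = 0.0423). Over all single omissions it ran from 1.56 to 3.40. Without both libraries rich in markers of other tissues it was 1.39 (edgeR, adjusted p = 0.325). In limma on log2(TPM + 1) it was 0.76 (adjusted p = 0.149). The tumors held 5, 0, 40 and 42 counts, and the third of them is the library rich in liver markers. Of 4 chromaffin-cell markers, 2 were called lower and 1 higher in tumors than in transgene-free ganglia. Scg2 stood at 0.74 to 12.44 TPM against 64.25 to 175.76 TPM and Penk at 0 to 5.23 TPM against 3.36 to 40.52 TPM, whereas Chgb stood at 291.54 to 1192.8 TPM against 208.05 to 813.67 TPM (called higher, 0.90) and Chga at 246.84 to 703.68 TPM against 106.07 to 568.33 TPM (0.70, adjusted p = 0.0907). Whether chromaffin cells contributed to the Pnmt reads was not tested.

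Both vesicle transporters fell in all 3 tumor comparisons. Slc18a2, the neuronal form (chr19:59260896-59296012, plus strand), was 337.2, 162.89, 262.37 and 391.62 TPM in transgene-free wild-type ganglia and 317.67, 370.54 and 278.64 TPM in those labelled heterozygous. In tumors it was 42.57, 11.42, 13.25 and 21.86 TPM. The groups did not overlap, and the log2 fold change was -3.34 (SE 0.37, adjusted p = 5.54e-06), a 10.1-fold loss. MYCN wild-type ganglia, at 133.1, 201.23 and 161.95 TPM, exceeded the tumors by 5.65-fold (adjusted p = 0.000368).

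Slc18a1, the form of endocrine cells such as chromaffin cells (chr8:69037711-69089235, minus strand), was a minor transporter by level in every group, at 9.06 to 27.07 TPM with a median of 17.77 TPM in the 7 transgene-free ganglia. Tumors held 2.79, 1.43, 0.54 and 0.69 TPM. Its log2 fold change was -3.31 (SE 0.49, adjusted p = 5.61e-05), and without tumor replicate 1 it was -3.91. MYCN ganglia labelled heterozygous, at 47.56 and 34.93 TPM, had the highest levels of all groups, above each of the other ganglia. The share of all genes with this order was not computed.

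Slc6a2, which returns released noradrenaline to the neuron (chr8:92960079-93001667, plus strand), showed the largest fall of the 9 genes. It was 1341.04, 392.81, 875.83 and 1467.36 TPM in transgene-free wild-type ganglia, 1202.07, 1852.54 and 1509.58 TPM in those labelled heterozygous, and 18.95, 2.19, 3.06 and 1.13 TPM in tumors. The lowest ganglion, MYCN wild-type replicate 1 at 312.01 TPM, still lay far above the highest tumor. It fell by 7.18 on the log2 scale (SE 0.90, adjusted p = 1.41e-05), and without tumor replicate 1 it was -8.76, or 435-fold. Against MYCN wild-type ganglia it was -6.38 (SE 0.90, adjusted p = 0.00018), and -7.96 without that tumor. The size of this fall depends on the scale too, at -7.91 in limma on log2(TPM + 1), where Dbh was at -4.97.

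Maoa, the oxidase that degrades noradrenaline (chrX:16619698-16687818, plus strand), was 675.27, 354.4, 603.91 and 864.69 TPM in transgene-free wild-type ganglia and 697.09, 812.9 and 584.98 TPM in those labelled heterozygous. The tumors held 50.37, 25.11, 25.17 and 28.44 TPM, below every ganglion. Maoa had the lowest adjusted p of the 9 genes, with a log2 fold change of -3.92 (SE 0.30, adjusted p = 5.20e-07), and against MYCN wild-type ganglia (261.11, 490.27 and 343.23 TPM) it was at -3.10 (SE 0.31, adjusted p = 1.22e-05).

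The comparison of tumors with MYCN wild-type ganglia called 6 of the 9 members lower, against 20.5% lower and 14.0% higher calls among all genes. The comparison with MYCN ganglia labelled heterozygous called 8 lower, against 23.5% lower and 22.0% higher calls among all genes. The 3 comparisons share the tumors, so they are not independent of one another. Leaving out the ganglion rich in lymphocyte markers and the tumor rich in liver markers together left the same 8 members lower against transgene-free ganglia, from -0.96 for Ddc to -7.07 for Slc6a2. In limma on log2(TPM + 1), the median over all genes was shifted to -0.35 and 7022 genes were lower against 3238 higher, in place of 5145 and 5095. The same 8 members were lower in that fit, from -1.47 for Ddc to -7.91 for Slc6a2. Glial markers summed to 12.17 to 19.97 TPM in tumors against 457.5 to 1839 TPM in all ganglia, and their part in the result was not tested.

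**Figure D2:**
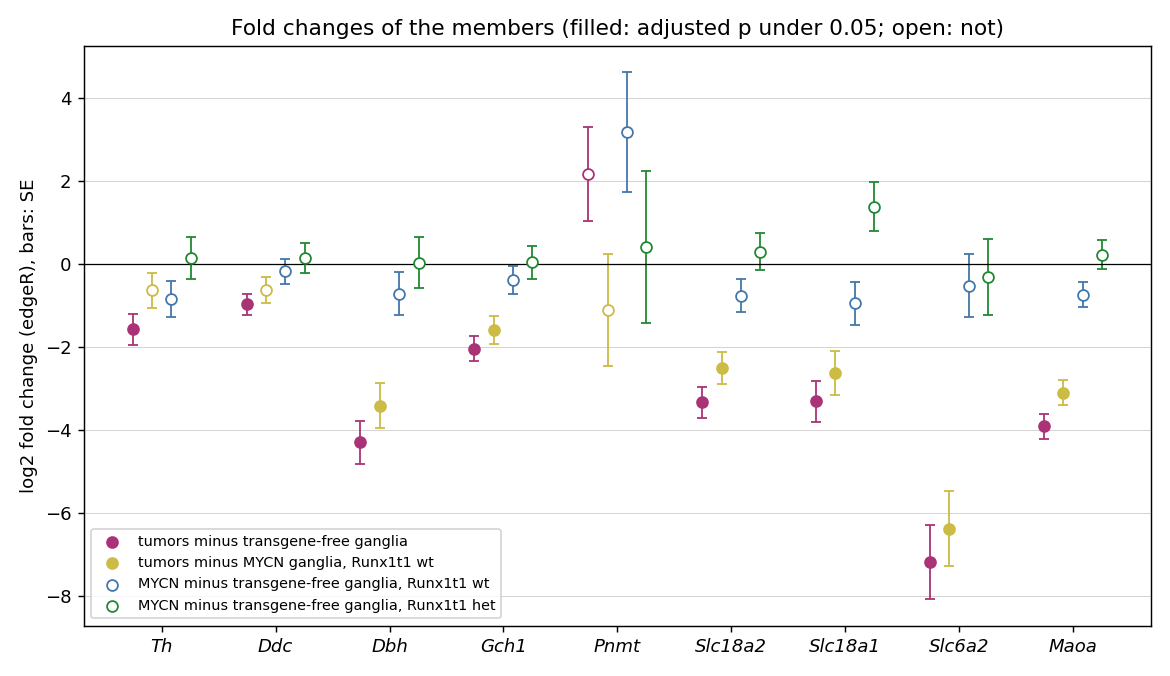
Log2 fold changes of the 9 genes from edgeR, with SE, for tumors against transgene-free ganglia, tumors against MYCN wild-type ganglia, and MYCN against transgene-free ganglia within each Runx1t1 genotype. Filled points passed an adjusted p of 0.05, and all of them are from the tumor comparisons and negative.

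By level, the order of the genes differed between ganglia and tumors. In transgene-free ganglia the mean levels were Dbh at 2890 TPM, Th at 1540 TPM and Slc6a2 at 1230 TPM, followed by Maoa and Ddc, both at 656 TPM, then Slc18a2 at 303 TPM, Gch1 at 174 TPM, Slc18a1 at 19.0 TPM and Pnmt at 0.486 TPM. In tumors Th came first at 380 TPM, Ddc next at 248 TPM and Dbh only then at 109 TPM, with Slc6a2 at 6.33 TPM. In transgene-free ganglia the range of Th overlapped those of Dbh and Slc6a2, and the range of Maoa overlapped that of Ddc. In tumors the ranges of Th, Ddc and Dbh overlapped one another, and tumor replicate 1 held more Dbh than Th. Across libraries these neighbours are thus not apart, while within each of the 7 transgene-free ganglia Dbh was above Th, and Slc6a2 lay below Th, Ddc and Dbh in every tumor.

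Levels relative to Th were tested for Ddc, Dbh, Slc18a2 and Maoa. The ratio of Slc6a2 to Th, which was not tested, was 0.5 to 1.0 in transgene-free ganglia and 0.00207 to 0.11 in tumors, with medians of 0.736 and 0.00796. The ratio of Dbh to Th in TPM was 1.5 to 2.13 in the 7 transgene-free ganglia and 1.52 to 2.31 in the 5 MYCN ganglia, but 1.43, 0.13, 0.295 and 0.0809 in the tumors. On the scale of log2((TPM + 1)/(Th TPM + 1)), the difference between tumors and transgene-free ganglia was -2.81 (two-sided exact permutation p = 0.00606, the smallest that 4 against 7 allows, adjusted over 12 tests p = 0.0364), with all tumors below all ganglia. Against the 5 MYCN ganglia it was -2.89 (exact permutation p = 0.0159, the smallest possible, adjusted p = 0.0477). The ratio of Maoa to Th behaved alike, at 0.352 to 0.497 in transgene-free ganglia and 0.293, 0.0458, 0.0981 and 0.0522 in tumors (difference -2.19, exact permutation p = 0.00606, adjusted p = 0.0364 and against MYCN ganglia -2.34, exact permutation p = 0.0159, adjusted p = 0.0477). With any 1 tumor left out these tests no longer pass, since 3 against 7 cannot go below 0.0167 before adjustment. The share of all genes whose ratio to Th separates tumors from ganglia was not computed. Whether this order is particular to Dbh and Maoa is therefore not known.

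The ratio of Slc18a2 to Th did not pass after adjustment (difference -1.71, exact permutation p = 0.0485, adjusted p = 0.097). Tumor replicate 1 at 0.248 lay above the transgene-free ganglia at 0.176 to 0.225, and the other tumors lay at 0.0208 to 0.0516. The ratio of Ddc to Th was 2.43 in tumor replicate 1 and 0.313 to 0.774 in the others, on both sides of the 0.382 to 0.472 of transgene-free ganglia (difference 0.69, exact permutation p = 0.224, adjusted p = 0.336). Between MYCN and transgene-free ganglia none of these 4 ratios passed, with adjusted p from 0.085 for Ddc to 0.554 for Dbh. The MYCN wild-type ganglia had Ddc to Th ratios of 1.03, 0.447 and 0.744, from near the top of the transgene-free range upward.

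**Figure D3:**
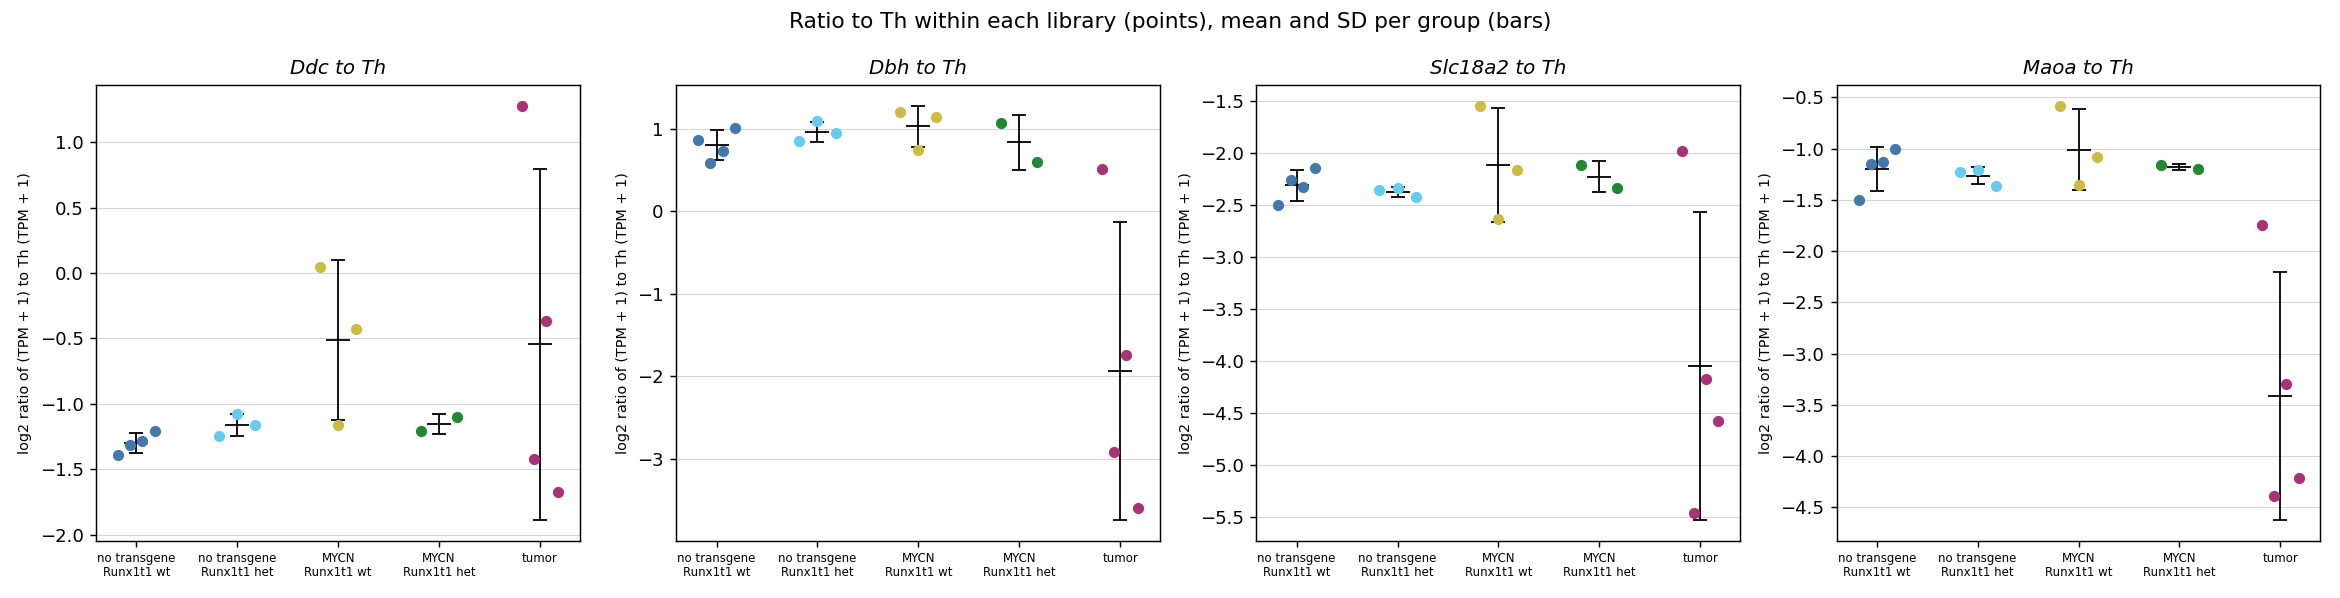
Log2 ratio of (TPM + 1) to Th (TPM + 1) for Ddc, Dbh, Slc18a2 and Maoa in each library (points) by group, with the mean and SD. For Dbh and Maoa the 4 tumors lie below every ganglion, with the TPM ratio of Dbh to Th at 0.0809 to 1.43 in tumors and 1.5 to 2.31 in ganglia. The share of all genes with this order relative to Th was not computed.

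The levels were also described relative to the mean log2(TPM + 1) of 10 pan-neuronal markers, with no test. In tumors against transgene-free ganglia 7 of these markers were lower in edgeR and 1 was higher, so the reference itself differed between the groups. Prph, an intermediate filament gene of peripheral neurons, fell most, from 1531 to 4331 TPM in transgene-free ganglia to 0.94 to 10.99 TPM in tumors, while the neurofilament gene Nefm rose from 451 to 1135 TPM to 949 to 4801 TPM. Each value was therefore also computed with Prph left out of the reference, an alternative chosen after the data were seen. With all 10 markers in the reference, the SD over the 7 transgene-free ganglia narrowed from 0.596 to 0.107 for Dbh on the log2 scale. For Th it narrowed from 0.446 to 0.0942. It widened for Slc18a1, from 0.642 to 0.908, and for Pnmt, from 0.604 to 0.754, and narrowed for the other members. Relative to all 10 markers, Dbh was 1.16 to 1.48 in transgene-free ganglia and -2.13 to -0.606 in tumors. Slc6a2 was -0.424 to 0.368 against -6.54 to -4.23, Slc18a2 was -2.14 to -1.69 against -4.01 to -3.11, and Maoa was -1.08 to -0.572 against -3.1 to -2.75. These 4 genes were therefore below the ganglia in every tumor, which held for 3.39% of all genes tested, and on log2(TPM + 1) alone 7 of the 9 members did so, against 30.9% of all genes. Without Prph in the reference these same 4 members were below the ganglia in every tumor, against 7.19% of all genes.

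Th, Gch1 and Slc18a1 did not separate tumors from ganglia on the neuronal scale. Th was 0.286 to 0.574 in transgene-free ganglia and -1.12, 1.46, 0.199 and 1.47 in tumors. Ddc ran from -0.961 to -0.691 in transgene-free ganglia to -0.205 to 0.159 in tumors, above all of them. Pnmt was above them too, and so were 54.6% of all genes tested, so this is the more common order on this scale. Without Prph in the reference no member was above all transgene-free ganglia in every tumor, against 26.0% of all genes, and Ddc was -0.783 to -0.529 in those ganglia and -0.946 to -0.393 in tumors. The markers themselves summed to only 4411 to 6081 TPM in 3 of the 4 tumors, and their part in these values was not tested.

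**Figure D4:**
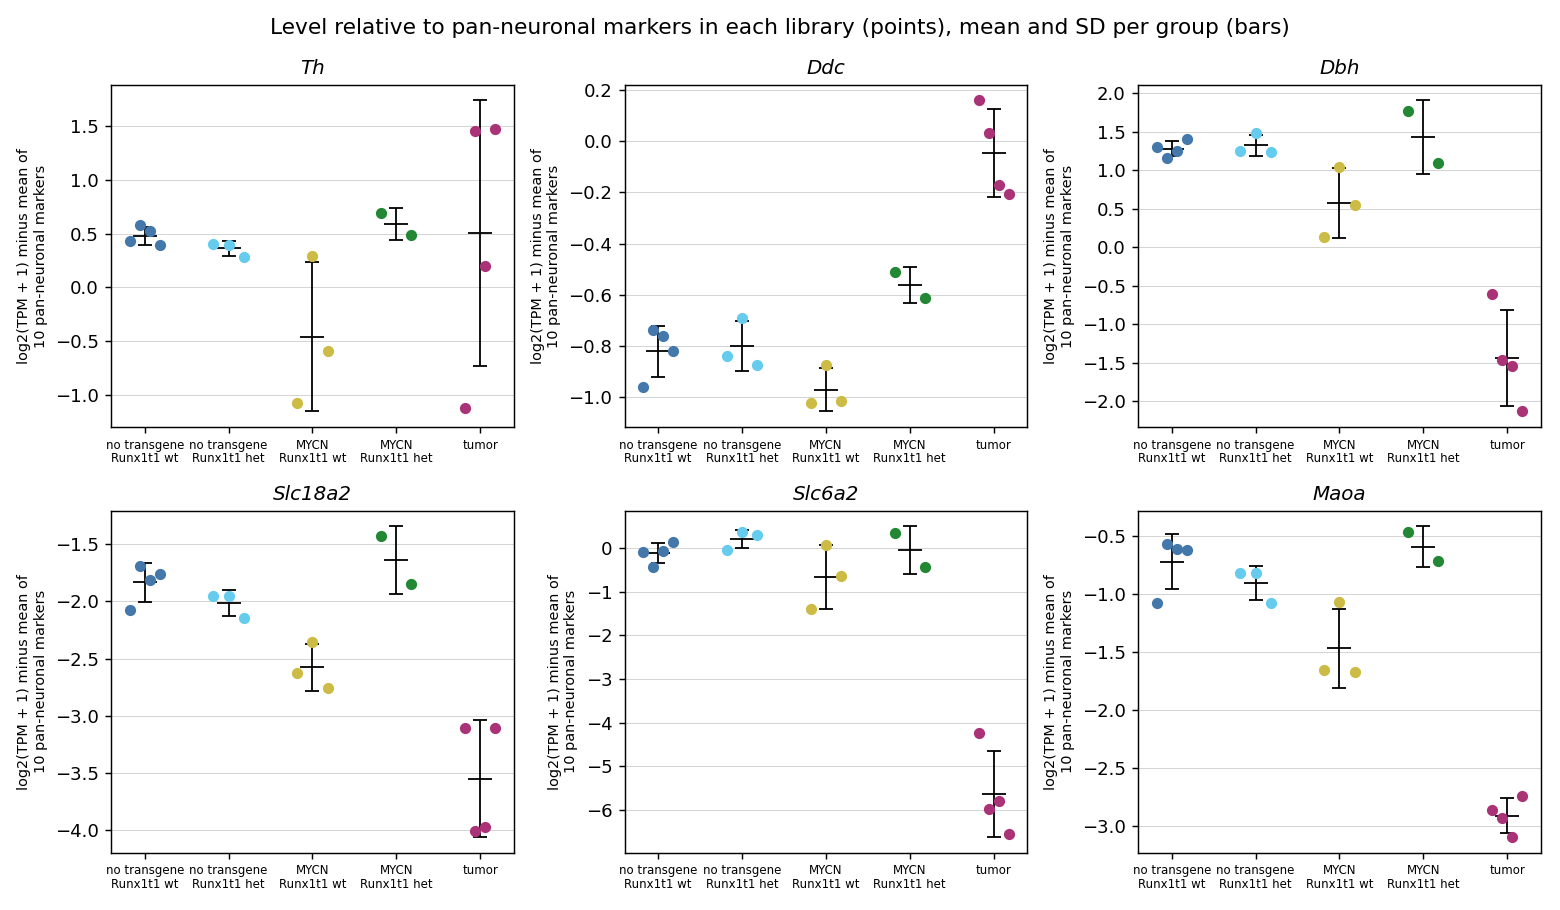
Levels of Th, Ddc, Dbh, Slc18a2, Slc6a2 and Maoa relative to 10 pan-neuronal markers, as the difference in log2(TPM + 1), for each library (points) by group, with the mean and SD. Dbh, Slc18a2, Slc6a2 and Maoa are lower in all 4 tumors than in all 7 transgene-free ganglia, while Ddc is higher, an order that Ddc lost without Prph in the reference.

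Between MYCN and transgene-free ganglia, none of the 9 genes passed the test, where 0.042% of all genes did. The log2 fold changes ran from -0.42 for Slc6a2 to 0.22 for Slc18a1, with 1.79 for Pnmt, and adjusted p in edgeR ran from 0.64 to 0.992. No member had an unadjusted p under 0.05, and DESeq2 called none. The count over all genes depended on the tool and on single libraries, with 346 genes higher and 12 lower in DESeq2. In edgeR it was 683 higher and 37 lower without MYCN wild-type replicate 3. It was 190 higher and 2 lower without transgene-free wild-type replicate 2, and 0 without transgene-free heterozygous-labelled replicate 1. In the wild-type mice alone, where 0.936% of all genes passed, 8 of the 9 differences were negative and none passed. The median log2 fold change there was -0.72 over the 9 genes and -0.04 over all genes tested. Maoa was at -0.74 (SE 0.30, unadjusted p = 0.0279, adjusted p = 0.201), Th at -0.84 (SE 0.43, adjusted p = 0.298), Slc18a2 at -0.76 (SE 0.39, adjusted p = 0.294) and Dbh at -0.72 (SE 0.52, adjusted p = 0.464). Pnmt, at 3.17 (SE 1.45), had an unadjusted p of 0.0457 and an adjusted p of 0.244. These 2 genes were the only members under 0.05 before adjustment, and DESeq2 called none. Over all genes DESeq2 called 936 higher and 353 lower here. In edgeR the count was 0 with the replicate block and 0 without MYCN wild-type replicate 1 or 4, and 1458 higher and 353 lower without replicate 3, with no member called in any of these fits.

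The MYCN wild-type ganglia differed from one another. Replicate 1 had the lowest Th (391.09 TPM), Dbh (901.73 TPM) and Slc6a2 (312.01 TPM) of all ganglia, and proliferation markers summed to 726.5 TPM in it, against 47.57 and 344.3 TPM in replicates 3 and 4 and 831.4 to 961.3 TPM in tumors. Relative to the pan-neuronal markers, all 3 lay below all 7 transgene-free ganglia for Dbh (0.129, 1.03 and 0.552) and for Slc18a2 (-2.62, -2.35 and -2.76). That order held for 2.45% of all genes tested, and without Prph in the reference the same 2 members had it, against 2.62% of all genes. On log2(TPM + 1) no member had it, against 2.56% of all genes. The part of proliferating cells in these values was not tested.

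In mice labelled Runx1t1 heterozygous, none of the 9 differences between MYCN and transgene-free ganglia passed the test. The log2 fold change was 0.14 for Th (SE 0.50), 0.04 for Dbh (SE 0.61) and -0.31 for Slc6a2 (SE 0.91), all with an adjusted p of 1.0. Slc18a1 alone had an unadjusted p under 0.05 (1.38, SE 0.60, unadjusted p = 0.0356). No gene of the tables was called here by edgeR in the fit of all groups (0.0% of genes, with 242 at an unadjusted p under 0.05). DESeq2 called 8 higher and 5 lower, and edgeR on these groups alone called 1 higher and 8 lower, no member in either.

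Within MYCN ganglia, 8 of the 9 genes had a higher mean in the group labelled heterozygous, all but Pnmt, and none passed the test (0.012% of all genes did). The median log2 fold change was 1.09 over the 9 genes and -0.09 over all genes tested. The members were read in the same libraries, so their directions are not separate observations. Over all genes DESeq2 called 166 higher and 105 lower, and edgeR without MYCN wild-type replicate 3 called 84 higher and 236 lower, with no member in either. Maoa was 908.87 and 772.86 TPM against 261.11, 490.27 and 343.23 TPM (log2 fold change 1.11, SE 0.35, unadjusted p = 0.00663, adjusted p = 0.30). Slc18a1 was at 1.80 (SE 0.60, unadjusted p = 0.00937, adjusted p = 0.309), Slc18a2 at 1.21 (SE 0.45, unadjusted p = 0.0179, adjusted p = 0.346) and Th at 1.18 (SE 0.50, unadjusted p = 0.0329, adjusted p = 0.376). For 7 of the 9 genes, all but Pnmt and Slc6a2, both heterozygous-labelled libraries were above all 3 wild-type ones in TPM, an order that 20.9% of all genes tested had. Proliferation markers summed to 33.34 and 138 TPM in the heterozygous-labelled libraries, and their part in the result was not tested.

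Within transgene-free ganglia the genotypes did not separate, with adjusted p from 0.993 to 0.999 and no gene of the tables called by edgeR (0.0%; 687 at an unadjusted p under 0.05, and 1 higher and 4 lower in DESeq2). The test of whether the transgene effect differed between the Runx1t1 genotypes also called no gene (0.0%; 937 at an unadjusted p under 0.05, and 19 higher and 12 lower in DESeq2). Among the members the lowest unadjusted p values were those of Slc18a1 at 2.34 (SE 0.79, unadjusted p = 0.0104, adjusted p = 0.845) and Maoa at 0.96 (SE 0.46, unadjusted p = 0.0555), and Pnmt was at -2.77 (SE 2.38, unadjusted p = 0.265). An allele effect on the 9 genes was not detected in ganglia.

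The genes around the pathway were taken from 7 lists of 46 genes, of which 45 were tested. In tumors against transgene-free ganglia 19 fell and 12 rose, where 30.9% of all genes were called lower and 30.6% higher. Against MYCN wild-type ganglia 16 fell and 3 rose (20.5% and 14.0% of all genes). Against those labelled heterozygous 15 fell and 4 rose (23.5% and 22.0% of all genes). In edgeR none was called in the 6 ganglia contrasts, where 0 to 9 had an unadjusted p under 0.05. The values below are log2 fold changes against transgene-free ganglia. Of the 7 genes of tetrahydrobiopterin supply, 5 fell and 1 rose. Pcbd1, which regenerates the cofactor, was at -2.32, Qdpr, which reduces it, at -1.34, Pts at -1.17, Pcbd2 at -0.97 and Spr, which makes it, at -0.57. Of the helpers of the enzymes, Cyb561, which carries electrons into the vesicle for Dbh, fell from a median of 860.72 TPM to 100.89 TPM (-2.68), and Dnajc12, a chaperone of the aromatic hydroxylases, was at -1.99.

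Of the 9 adrenoceptors, 5 fell and none rose, where 30.9% of all genes were called lower and 30.6% higher. The presynaptic receptor Adra2a was at 83 TPM in the median of transgene-free ganglia and 0.245 TPM in tumors (-8.00, adjusted p = 9.71e-08), Adra2b was at -7.71, Adra1d at -2.85 and Adra1a at -2.77. Adra2c, which stood at 22.44 and 24.09 TPM, was at 0.33 (adjusted p = 0.351). Of the other breakdown enzymes Maob fell by 3.33, Aldh3a2 by 1.94 and Akr1a1 by 0.77. Of the other transporters Slc22a3 was at -2.97 and Slc6a4, the serotonin transporter, at -1.81. Of the paralogs of Th that make serotonin, Tph2 rose by 4.13 to a median of 2.91 TPM, while Tph1 was called lower from 0 to 1 counts in tumors and 0 to 10 in transgene-free ganglia. Rnls, a flavin oxidase, was at 0.84. Without tumor replicate 3, Rnls was at 0.80 (edgeR, adjusted p = 0.0767) and Slc6a4 at -1.79 (adjusted p = 0.0659), and neither passed the test, nor did Tph1 (adjusted p = 0.0869).

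Of 9 transcription factors of the noradrenergic lineage, 6 rose and 1 fell, where 30.6% of all genes were called higher and 30.9% lower. Insm1 rose from a median of 0.27 TPM to 93.765 TPM (7.90), Tfap2b was at 1.49 and Isl1 at 1.24, whereas Phox2a was at -1.57. Hand2 (-0.30) and Gata2 (-0.57) did not pass. In limma on log2(TPM + 1), Isl1 was not called (0.70), and Hand2 (-0.72) and Gata2 (-1.86) were called lower. Of all 45 genes 24 were then lower and 7 higher.

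The call of Aldh1a1, a dehydrogenase abundant in liver, rests on tumor replicate 3, the library rich in liver markers. Aldh1a1 was at 83.21 TPM in it against 4.52 to 7.21 TPM in the other tumors, and its log2 fold change of 2.5 became 0.41 without it (adjusted p = 0.569). Of all 45 genes, 20 were lower and 8 higher without that tumor. The lists were tested against no other genes, and 30.9% of all genes were lower.

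**Figure D5:**
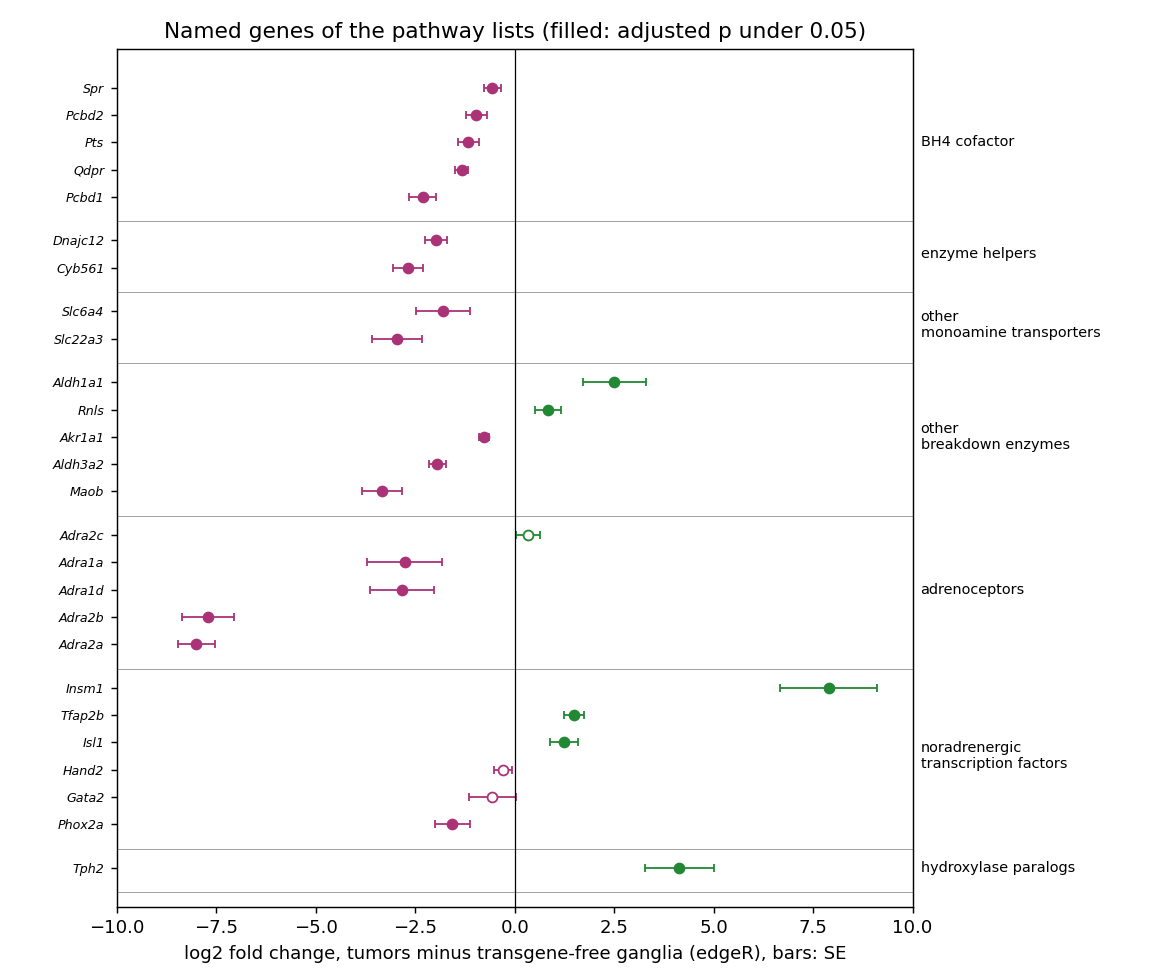
Log2 fold changes, with SE, of the genes of these lists that the text names, Tph1 left out for its low counts, in tumors against transgene-free ganglia, from edgeR, by list. Filled points passed an adjusted p of 0.05. Adra2a (-8.00) and Adra2b (-7.71) lie lowest, and Insm1 (7.90) highest.

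The genes with the pattern most like that of each of 3 members were found among 14686 genes, by the mean absolute difference between profiles of log2(TPM + 1) centred on their own mean over 16 libraries. For Th they were Spsb1 (0.207), Rap1gap2 (0.211) and Rasl11b (0.227), for Dbh Gria1 (0.186), Eno2 (0.188) and Kcnmb4 (0.2), and for Maoa Snph (0.141), Vwc2l (0.161) and Kcnt1 (0.163). Among the members, Maoa was nearest to Slc18a2 (0.19) and then Dbh (0.327). Th was nearest to Gch1 (0.302) and farthest from Slc6a2 (2.15).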

How the data were processed

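Celiac ganglia and tumors gave 16 libraries. The authors made them with a stranded total RNA kit (the labels give polyA RNA as the molecule), aligned paired reads to mm10 with STAR, sorted them with SAMtools and quantified genes with RSEM. Whether counting used strand is not given in the sources used here. The deposited TPM values and the deposited expected counts come from RSEM, one column per library and none pooled. Expected counts, 6.05% of them not whole, were rounded. No column was left unmapped.

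The fit was edgeR's quasi-likelihood test (edgeR 4.0.16, R 4.3.3) with TMM scaling and a filter by group (filterByExpr), over all 16 libraries and 5 groups. Adjusted p-values are Benjamini-Hochberg over all 16665 genes tested, with a threshold of 0.05, and the SE is the absolute fold change over the root of F. DESeq2 1.42.0 and limma 3.58.1, on log2(TPM + 1) and log2(TPM + 0.1), were alternatives, with upper-quartile scaling, other filters, a replicate block, a depth term (split at 20000000 counts), fits of only the groups compared, and each library left out in turn. Ratios were tested by two-sided exact permutation. All members are named. Pathway genes were named if past the threshold, at most 6 a list by fold change, and some are counted but not reported here by name. Those named without passing (Adra2c, Hand2 and Gata2) were chosen after their values were seen, as were leaving out both libraries with markers of other tissues and leaving Prph out of the pan-neuronal reference. The members and lists were chosen with earlier results of these data known. Coordinates are GENCODE vM21 (GRCm38). The fit was tested on simulated data.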

Additional observations from a re-analysis of the deposited data

Results flagged for a closer look

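Among 18 sets of a member gene in a group of 4 libraries, 4 had a library far from the others by Dixon's test, and chance flags about 1 in 20 such sets. All 4 were tumor replicate 1. Its level of Ddc was 417.97 TPM against 170.43 to 203.96 TPM in the other tumors, that of Dbh 245.49 TPM against 44.1 to 75.76 TPM, that of Slc6a2 18.95 TPM against 1.13 to 3.06 TPM, and that of Maoa 50.37 TPM against 25.11 to 28.44 TPM. The gap to the nearest tumor took 0.843 to 0.892 of the whole range. The same library had the lowest Th of the tumors (171.7 TPM) and a pan-neuronal marker sum of 12680 TPM against 4411 to 6081 TPM in the others, whose part in these values was not tested. Among these markers, Nefm was at 8261 CPM (library-size-scaled counts, with TMM) against 1669 to 2861 CPM in the other tumors. Nefl was at 4000 CPM against 891 to 1773 CPM. Stmn2 (905 CPM against 245 to 407 CPM), Uchl1 (788 CPM against 424 to 534 CPM), Gap43, Elavl4, Snap25 and Prph were also highest in this library. Tubb3, at 687 CPM, lay inside the 636 to 786 CPM of the other tumors. Syt1, a synaptic vesicle gene, was the lowest of the 4 tumors at 63.6 CPM against 87.7 to 143 CPM.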

How the results depend on the processing

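With Prph left out of the pan-neuronal reference, 0 in place of 2 members were above all transgene-free ganglia in every tumor. The number of members called kept within 1.5 times of the value given in every comparison and alternative, and none was called in a ganglia comparison. With each library left out in turn, 8 to 9 members were called for tumors against transgene-free ganglia and 6 to 7 against MYCN wild-type ganglia. Ddc against MYCN wild-type ganglia was also called in limma, at -1.10 with either pseudocount. Of 25 same-numbered pairs of libraries, 7 had deviations that correlated over 0.1 (r from -0.315 to 0.319). They include all 4 pairs of transgene-free wild-type ganglia with tumors (0.148 to 0.319) and none of the 3 pairs of heterozygous-labelled transgene-free ganglia with tumors (-0.14 to 0.0119). The labels give the numbers no meaning across genotypes. With the replicate block 8 members were again lower in tumors than in transgene-free ganglia, and no count of member calls changed.

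No difference that turned direction had passed a test, and the turns were largest for Pnmt. Ddc in MYCN against transgene-free ganglia was 0.0045 without the filter, 0.036 with the replicate block, 0.043 with the depth term and 0.025 in limma with either pseudocount, and -0.11 to 0.058 with a library left out. With the replicate block, Pnmt in tumors against MYCN ganglia labelled heterozygous was -0.94, and within heterozygous-labelled ganglia Gch1 was -0.055 and Slc6a2 0.11 (0.13 with the depth term). Between genotypes of transgene-free ganglia Pnmt was 0.058 in limma with 0.1 added. With both libraries holding other tissues left out, Gch1 was -0.024, Slc18a2 -0.026 and Maoa -0.023 there. With a library left out, MYCN against transgene-free ganglia labelled heterozygous gave -0.29 to 0.31 for Dbh, -0.031 to 0.13 for Gch1 and -0.93 to 2.85 for Pnmt. The genotype difference in transgene-free ganglia gave -0.021 to 0.44 for Gch1, -0.019 to 0.32 for Maoa, -0.023 to 0.31 for Slc18a2 and -2.64 to 1.63 for Pnmt. The difference of the transgene effect between genotypes gave -0.22 to 0.64 for Slc6a2. The cause was not tested.

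For the ratios to Th, leaving out a library gave -3.62 to -2.25 for Dbh in tumors against transgene-free ganglia, -3.71 to -2.34 against MYCN ganglia, and -2.74 to -1.86 and -2.89 to -2.01 for Maoa, with adjusted p up to 0.0858 because fewer libraries raise the smallest p possible. Ddc to Th was -0.39 to 0.60 in tumors against MYCN ganglia, negative only without tumor replicate 1, and 0.27 to 0.58 in MYCN against transgene-free ganglia, where it passed only without heterozygous-labelled transgene-free replicate 3 (0.50, exact permutation, adjusted p = 0.0382).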
